A study of Mus musculus with 14 samples.

Results

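The inflammation-linked microRNAs (miRNAs) mmu-miR-146a-5p, mmu-miR-146b-5p, mmu-miR-155-5p, mmu-miR-21a-5p and mmu-miR-21a-3p were followed over 14 Agilent miRNA arrays of mouse bone marrow and hypothalamus. They were chosen by name, with earlier results of these data known, and all 5 were found among the 1247 miRNAs on the array. Each array held pooled RNA of 3 male C57BL/6 mice aged 6 to 8 weeks, taken 12 h after 0 or 8 Gy of gamma rays. Bone marrow had 5 arms with 1 array at 0 Gy and 1 at 8 Gy: phosphate-buffered saline (PBS) into the abdomen (i.p.), PBS into the stomach (i.g.), amifostine at 10 mg/kg i.p. and CBLB502 at 0.2 mg/kg i.p., both given 0.5 h ahead of irradiation, and nilestriol at 150 mg/kg i.g., given 48 h ahead. In hypothalamus there were only 2 arms, PBS i.p. and amifostine, again with 1 array per dose. Amifostine is a thiol prodrug that scavenges radicals, CBLB502 is an engineered bacterial flagellin and so an agonist of Toll-like receptor 5, and nilestriol is a long-acting estrogen. No condition had a second array, so every p-value measures the spread between arms or doses, not between mice. Where the change of a drug difference with irradiation was tested, that spread was between the 2 PBS routes alone. In a bulk sample, fewer cells of a type and less RNA per cell cannot be told apart.

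miR-146a and miR-155 are switched on by NF-kB when Toll-like receptors are engaged. miR-146a and miR-146b repress the adaptors IRAK1 and TRAF6 and so dampen the same pathway, while miR-155, made from the lncRNA Mir155hg, represses SOCS1 and SHIP1 and is known for sustaining myeloid and lymphoid activation. miR-21a is an abundant miRNA that represses Pdcd4 and is induced by STAT3, AP-1 and NF-kB. Its hairpin gives a dominant 5′ arm, miR-21a-5p, and a rarer 3′ arm, miR-21a-3p.

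The mature sequences are shown because they set which members can share targets and which probes can tell members apart. They were taken from RefSeq (GRCm38.p6), which held all 5, and the seed (bases 2 to 8 from the 5′ end) is in capitals.
mmu-miR-146a-5p: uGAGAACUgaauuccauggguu
mmu-miR-146b-5p: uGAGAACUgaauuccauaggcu
mmu-miR-155-5p: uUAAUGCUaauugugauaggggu
mmu-miR-21a-5p: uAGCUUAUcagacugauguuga
mmu-miR-21a-3p: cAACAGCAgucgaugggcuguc
Mature miR-146a-5p lies in Mir146 at chr11:43374435-43374456 on the minus strand, and miR-146b-5p in Mir146b at chr19:46342790-46342811 on the plus strand, inside the span of the lncRNA Gm36493. Mature miR-155-5p lies at chr16:84714143-84714165 on the plus strand, inside the span of Mir155hg. The 2 arms of Mir21a lie at chr11:86584120-86584141 and chr11:86584082-86584103 on the minus strand, inside the span of the protein-coding gene Vmp1. miR-146a-5p and miR-146b-5p share their seed and differ at 2 of 22 bases, G18A and U21C (the base of miR-146a-5p, the position from the 5′ end, the base of miR-146b-5p). Among the RefSeq sequences, the seed of miR-21a-5p is shared with mmu-miR-21c, and no other miRNA has the seed of miR-155-5p or miR-21a-3p. RefSeq held a sequence for 1017 of the 1247 miRNA names on the array, so other miRNAs with these seeds can be missing.

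Those 2 differing bases decide how the array separates the miR-146 pair. The longer probe of each, with 19 bases, is printed 5′ to 3′ with the bases that differ in capitals.
miR-146a-5p probe: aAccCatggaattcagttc
miR-146b-5p probe: aGccTatggaattcagttc
Both pair with bases 4 to 22 of their miRNA, and each has 2 mismatches to the other. How much of either miRNA bound the other's probe was not tested.
The Mir21a hairpin (chr11:86584067-86584158, minus strand) is shown with both arms in capitals, miR-21a-5p at bases 18 to 39 and miR-21a-3p at bases 56 to 77, since the 3′ arm was near background while the 5′ arm was detected on every array.
Mir21a: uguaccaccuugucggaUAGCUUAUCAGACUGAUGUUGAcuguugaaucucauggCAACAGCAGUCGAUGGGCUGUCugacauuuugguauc

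Levels are given as scaled log2 signal: the background-subtracted signal of a miRNA relative to a 75th percentile that was taken, on each array, from the miRNAs detected throughout the fit, with low values raised to a floor, at -5.31 for bone marrow. A level is compared between arrays for the same miRNA, since probes of different miRNAs can respond differently. The arrays detected 332 to 403 miRNAs in bone marrow and 478 to 582 in hypothalamus, and no spot was saturated. Slide 1 held all PBS arrays and the CBLB502 arrays, slide 2 the bone marrow arrays of amifostine and nilestriol, and slide 3 the hypothalamus amifostine arrays, so these 2 drugs and their slides cannot be told apart. The tissue labels were borne out by defining miRNAs: neuronal miR-124-3p was detected on 0 of 10 bone marrow and 4 of 4 hypothalamus arrays, and all 5 brain miRNAs on the array were higher in hypothalamus.

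After 8 Gy, miR-21a-5p and miR-146b-5p rose in bone marrow, while miR-155-5p and miR-146a-5p did not pass the test. These were 2 of the 5 members, both higher, beside 47 of all 371 miRNAs tested (12.7%), of which 34 were higher and 13 lower (limma, Benjamini-Hochberg adjusted p under 0.05, arm as block). With quantile normalization the split was 19 higher and 23 lower, and with scaling to the 75th percentile of all miRNAs 21 and 13. The median difference was 0.09 over all miRNAs tested. Over the 5 members it was 0.08, the value of miR-21a-3p itself, which lay at or near the floor.

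The level of miR-21a-5p at 0 Gy was 2.998 after PBS i.p., 2.75 after PBS i.g., 2.79 after CBLB502, 2.47 after amifostine and 2.66 after nilestriol. At 8 Gy it was 3.39, 3.25, 3.18, 3.24 and 3.22 in the same order. Every irradiated array lay above every unirradiated one. On this scale the irradiated arrays lay closer together, with an SD of 0.08 against 0.19 (n = 5 each). The unscaled signals did not narrow, at 1702 to 2153 over the 0 Gy arrays and 2193 to 3309 over the 8 Gy arrays. The difference between doses was 0.52 ± 0.10 (SE, n = 5 arms), or 1.44-fold, with an adjusted p of 0.0262 (limma), and it was positive in 5 of 5 arms, from 0.39 after CBLB502 to 0.77 after amifostine. The call was lost in 12 of 19 alternatives. Leaving out an arm ended it in 4 of 5 cases, with differences of 0.46 to 0.55 and an adjusted p of 0.103 without PBS i.p., 0.0695 without PBS i.g., 0.0879 without amifostine and 0.0775 without CBLB502. Under quantile normalization the difference was 0.08 (adjusted p = 0.667), and in the authors' deposited table it was 0.20 (adjusted p = 0.283).

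For miR-146b-5p, which shares its seed with miR-146a-5p, the level at 0 Gy was -2.05 after PBS i.p., -1.98 after PBS i.g., -2.63 after CBLB502, -2.67 after amifostine and -2.71 after nilestriol. At 8 Gy the same arms were at -1.61, -1.79, -2.13, -2.08 and -2.24. All 5 arms were higher at 8 Gy, but the doses overlapped because the 2 PBS arms lay above the 3 drug arms at either dose. The difference was 0.44 ± 0.10 (SE, n = 5 arms), or 1.35-fold (adjusted p = 0.0401, limma), from 0.20 after PBS i.g. to 0.59 after amifostine. This call sat at the threshold and was lost in 17 of 19 alternatives, in which the difference stayed positive and the adjusted p ran from 0.0402 to 0.176 over all 19. Without the PBS i.p., PBS i.g., amifostine or CBLB502 arm the adjusted p was 0.141, 0.0566, 0.144 and 0.117.

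**Figure D1:**
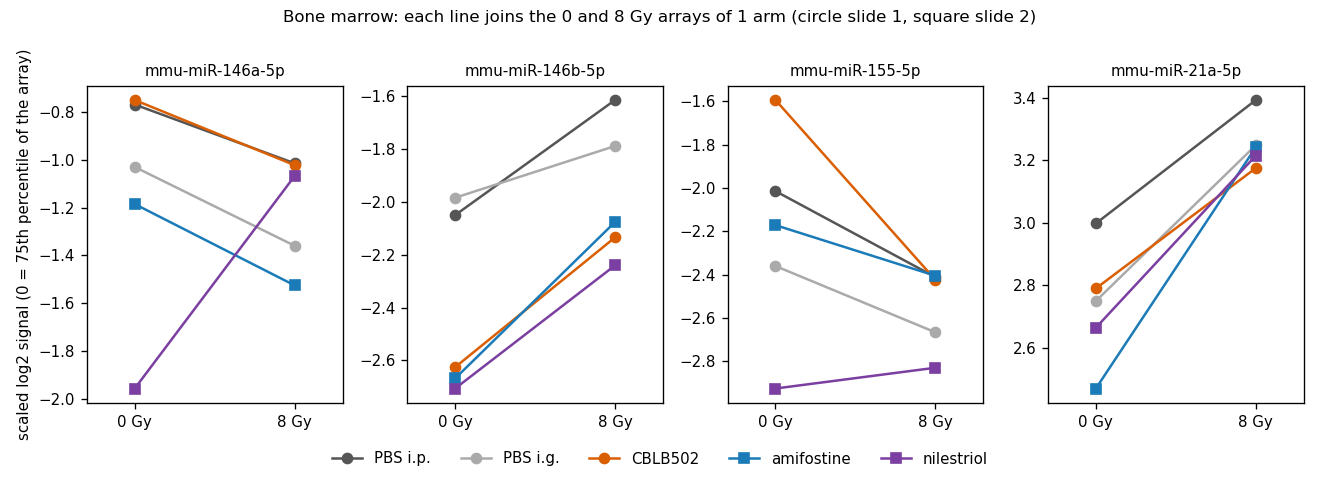
Scaled log2 signal (vertical axis) of 4 members in bone marrow at 0 and 8 Gy; each line joins the 2 arrays of 1 arm, with circles for slide 1 and squares for slide 2. All 5 lines rise for miR-21a-5p and miR-146b-5p, the 2 PBS arms lie highest for miR-146b-5p, and the nilestriol line alone rises for miR-146a-5p, from -1.96 to -1.07.

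For miR-155-5p, the level at 0 Gy was -2.01 after PBS i.p., -2.36 after PBS i.g., -1.59 after CBLB502, -2.17 after amifostine and -2.93 after nilestriol. At 8 Gy these became -2.41, -2.67, -2.42, -2.41 and -2.83. The doses overlapped, and the spread among arms narrowed from an SD of 0.49 to one of 0.19 (n = 5 each). The difference was -0.33 ± 0.14 (SE, n = 5 arms; adjusted p = 0.150, limma), with 4 of 5 arms below 0. The CBLB502 arm had the largest drop, -0.83, and the nilestriol arm was at 0.10.

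For miR-146a-5p, the level at 0 Gy was -0.77 after PBS i.p., -1.03 after PBS i.g., -0.75 after CBLB502, -1.19 after amifostine and -1.96 after nilestriol, and at 8 Gy it was -1.02, -1.36, -1.02, -1.53 and -1.07. In 4 arms the irradiated array was lower by similar amounts, with differences of -0.34 to -0.25. The nilestriol arm differed from them at 0.89, because its unirradiated array was the lowest of the 10. Over the 5 arms the difference was -0.06 ± 0.21 (SE; adjusted p = 0.837, limma), and without the nilestriol arm it was -0.30 (adjusted p = 0.0526).

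**Figure D2:**
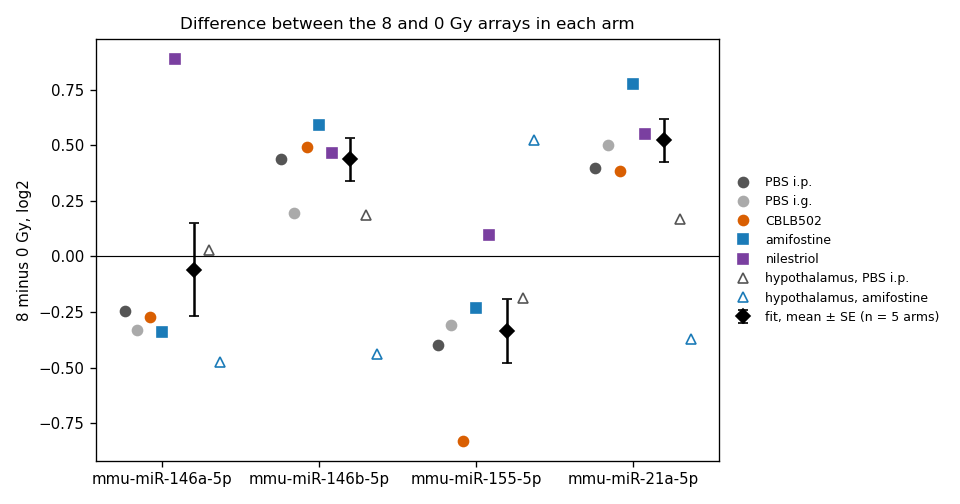
Log2 difference between the 8 and 0 Gy arrays (vertical axis) of 4 members in each arm; filled symbols are bone marrow arms, black diamonds the fitted mean over 5 arms with its SE, and open triangles hypothalamus arms. The bone marrow arms of miR-21a-5p lie between 0.39 and 0.77 and those of miR-146b-5p between 0.20 and 0.59, while for miR-146a-5p nilestriol lies at 0.89 and the other 4 arms between -0.34 and -0.25.

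The other miRNAs of the same pathways were read from a list of 20 miRNAs linked to NF-kB or Toll-like receptors. That list was chosen with earlier results of these data known, so its counts are a description. In bone marrow 14 of its miRNAs were tested. Of these, 3 rose after 8 Gy and none fell, beside 34 higher and 13 lower of all 371 (12.7% called): miR-223-3p, a granulocyte miRNA, by 0.54 ± 0.10, miR-221-3p by 0.48 ± 0.10 and miR-222-3p by 0.65 ± 0.15 (adjusted p = 0.0260, 0.0284 and 0.0430, limma). The median of the 14 was 0.42, against 0.09 over all tested. Blood cell miRNAs moved with dose as well, but miR-223-3p is on this list too and its rise is counted in both. Of the 6 tested (7 listed), 3 rose, among them erythroid miR-451a by 1.40 ± 0.17 and miR-144-3p by 1.60 ± 0.34, and lymphoid-rich miR-181a-5p fell by 0.67 ± 0.13 (adjusted p = 0.00922, 0.0348 and 0.0284). The other 2 were below 0 without passing, miR-150-5p at -0.60 and miR-142-3p at -0.03. The summed scaled signal of the 6 was 108 to 189 over the 0 Gy arrays and 245 to 373 over the 8 Gy arrays, but such a sum follows its brightest miRNAs. The part of blood cell make-up in the rises of miR-21a-5p and miR-146b-5p was not tested.

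The opposite strands of 3 members and related miRNAs listed with them (miR-146a-3p, miR-146b-3p, miR-155-3p, miR-21b, miR-21c and miR-590-5p) were detected on 0 of 14 arrays, so none was tested in any comparison. miR-21a-3p, the 3′ arm of Mir21a, was the one minor strand with signal. It was detected on 1 of 5 bone marrow arrays at 0 Gy, that of nilestriol, and on 5 of 5 at 8 Gy. Its unscaled signal at 0 Gy was 1.33 after PBS i.p., 1.46 after PBS i.g., 1.45 after CBLB502, 1.60 after amifostine and 4.57 after nilestriol. At 8 Gy it was 7.53, 6.84, 8.31, 5.82 and 5.77 in that order, so the doses did not overlap.

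Because miR-21a-3p lay at or near the floor at both doses, its scaled difference does not measure the size of the change. The 8 Gy arrays of PBS i.g., amifostine and nilestriol were themselves raised to the floor. In the 2 PBS arms, where it was not detected at 0 Gy, the levels after flooring were 1.06-fold higher at 8 Gy. Over the 5 arms the fit gave 0.08 ± 0.09 (SE, adjusted p = 0.527, limma). When an offset replaced the floor the difference was 0.64 (adjusted p = 0.0102). It was 4.26 in the authors' deposited table (adjusted p = 0.0703) and 2.77 with the scanner software's totals (adjusted p = 0.139), so both the size and the call depended on how low values were treated. Its 4 probes pair with the last 12, 13, 14 and 15 bases. The 15-base probe had mean signals of 3.44 to 9.30 over the 0 Gy arrays and 11.3 to 17.2 over the 8 Gy arrays, and the 14-base probe 2.98 to 7.502 and 8.44 to 12.3. The 13-base probe was at -0.79 to 1.18 and 1.72 to 4.12, and the 12-base probe at -3.89 to 0.29 and -1.37 to 1.73. The doses overlapped for the 12-base probe and not for the other 3, each printed on 10 spots.

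**Figure D3:**
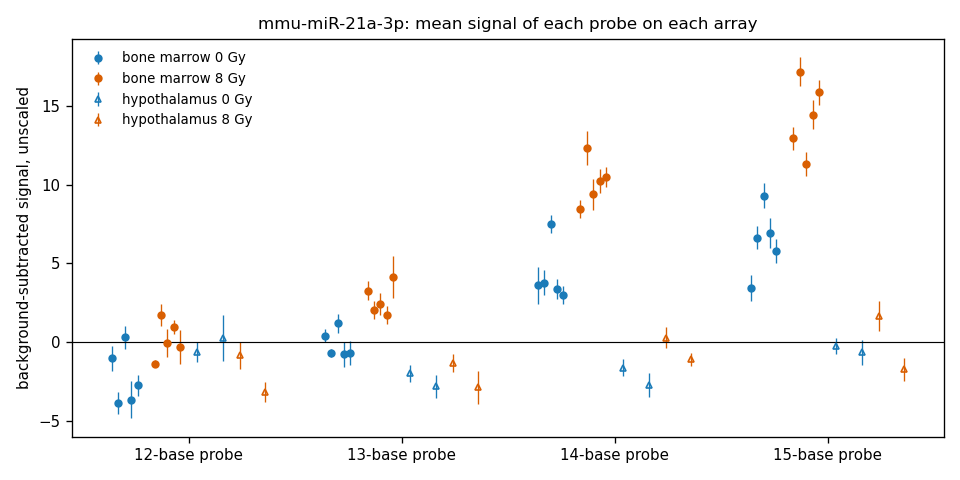
Background-subtracted, unscaled signal (vertical axis) of the 4 probes for mmu-miR-21a-3p; each point is 1 array (mean over the spots of the probe, bar = SE over spots), circles bone marrow and triangles hypothalamus. The 15-base probe lies at 3.44 to 9.30 in bone marrow at 0 Gy and at 11.3 to 17.2 at 8 Gy, and the hypothalamus arrays lie near 0 for all probes.

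In the 2 PBS arms alone, which hold no drug and lie on 1 slide, no member passed, as was the case for all 362 miRNAs tested (0%, limma; 107 had an unadjusted p under 0.05). The design left 1 residual degree of freedom. The directions in this pair of arms were those of the whole: miR-21a-5p differed by 0.46 ± 0.08 (SE, n = 2 arms; adjusted p = 0.160) and miR-146b-5p by 0.33 ± 0.10 (0.184). The value was -0.27 ± 0.07 for miR-146a-5p (0.172) and -0.34 ± 0.08 for miR-155-5p (0.170). These arrays are part of the 5-arm fit and give no independent check of it.

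The question put to CBLB502 is what a Toll-like receptor 5 agonist did to these miRNAs, some of which are switched on through Toll-like receptors. Of the 5 members, 1 passed against the 4 PBS arrays, miR-146b-5p, and it was lower. Of all 371 miRNAs, 45 passed (12.1%), 20 higher and 25 lower; scaled to the 75th percentile of all miRNAs the split was 13 higher and 70 lower, with quantile normalization 7 and 42. That scaling moved the median over all miRNAs from 0.15 to -0.02.

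The level of miR-146b-5p after CBLB502 was 0.58 and 0.64 below the PBS i.p. and PBS i.g. arrays at 0 Gy, and 0.52 and 0.35 below them at 8 Gy. The difference over both doses was -0.52 ± 0.12 (SE, 2 arrays against 4), which is 1.43-fold lower (adjusted p = 0.0445, limma). It was below 0 in all 23 alternatives, from -0.76 to -0.25, but past the threshold in 9 of them. The call was lost without scaling, at -0.56 (adjusted p = 0.104). It was also lost with PBS i.p., the route of CBLB502, as the only vehicle, where no miRNA passed. On leaving out an array, the adjusted p rose to 0.112 without the 0 Gy PBS i.p. array, 0.0845 without that of PBS i.g. and 0.146 without that of CBLB502. Without the 8 Gy array of PBS i.p., amifostine or CBLB502 it was 0.0731, 0.0509 and 0.311.

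For miR-155-5p, the CBLB502 array at 0 Gy was the highest of the 10 bone marrow arrays, 0.42 above PBS i.p. and 0.77 above PBS i.g. At 8 Gy it lay between the PBS arrays, 0.01 below PBS i.p. and 0.24 above PBS i.g. Over both doses the difference was 0.35 ± 0.21 (SE; adjusted p = 0.238, limma) and did not pass, nor did the change of the drug difference with irradiation, -0.48 ± 0.32 (adjusted p = 0.724). For that change with irradiation, 0 of 371 miRNAs passed (0%; 38 at an unadjusted p under 0.05).

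The other miR-146, miR-146a-5p, lay within 0.02 of PBS i.p. at both doses after CBLB502 and 0.28 and 0.34 above PBS i.g. Its difference was 0.16 ± 0.28 (SE; adjusted p = 0.669), and with scaling to the 75th percentile of all miRNAs it was -0.08. The PBS routes differed from each other by as much, with PBS i.g. 0.26 and 0.35 below PBS i.p. at 0 and 8 Gy. For miR-21a-5p the difference was -0.11 ± 0.14 (adjusted p = 0.5262). The values of miR-21a-3p lay at the floor on most arrays of every drug comparison, and its fitted drug differences are not given.

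Of the 14 tested miRNAs linked to NF-kB or Toll-like receptors, 2 fell after CBLB502 and none rose, a share near the 12.1% called among all miRNAs: miR-223-3p by 0.95 ± 0.13 and miR-30b-5p by 0.69 ± 0.15 (adjusted p = 0.0277 and 0.0445, limma). The median of the 14 was -0.34, against 0.15 over all tested. The summed blood cell signal after CBLB502 was 132 at 0 Gy, against 169 and 189 in the PBS arms, and 245 at 8 Gy, against 301 and 365. Of the 6 blood cell miRNAs in that sum, 5 were below 0 and 1 was above. Only miR-223-3p passed, which is on both lists and is counted in both. The part of blood cell make-up in the lower miR-146b-5p was not tested.

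Amifostine and nilestriol gave the same picture for miR-146b-5p without passing the test. After amifostine it was 0.62 and 0.46 below PBS i.p. at 0 and 8 Gy, and the fitted difference was -0.51 ± 0.12 (SE; adjusted p = 0.133, limma). After nilestriol it was 0.72 and 0.45 below PBS i.g., with a difference of -0.61 ± 0.12 (adjusted p = 0.116). Each of the 6 drug-treated arrays thus lay below both PBS arrays of its dose, though the 3 comparisons share the PBS arrays and 2 of the drugs lie on another slide. No miRNA passed for either drug (0 of 371, 0%; 76 for amifostine and 95 for nilestriol at an unadjusted p under 0.05). With scaling to the 75th percentile of all miRNAs the nilestriol call for miR-146b-5p was gained, at -0.85 (adjusted p = 0.0217, limma). Calls of other miRNAs were gained with it, as counted in the last section. Without the 8 Gy nilestriol array, which left 1 array of the drug, the difference was -0.63.

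The remaining members did not pass after amifostine, with differences of -0.31 ± 0.28 for miR-146a-5p (adjusted p = 0.516), 0.07 ± 0.21 for miR-155-5p (0.866) and -0.24 ± 0.14 for miR-21a-5p (0.340). After nilestriol, miR-155-5p was lower than in any other arm at either dose, with a difference of -0.52 ± 0.21 (adjusted p = 0.180), and miR-21a-5p differed by -0.16 ± 0.14 (0.427). For miR-146a-5p the nilestriol difference was -0.47 ± 0.28 (adjusted p = 0.266). It came from the 0 Gy array, 0.93 below PBS i.g., while the 8 Gy array was 0.29 above. Without the 8 Gy nilestriol array the difference was -1.06, and without the 0 Gy one it was 0.14, each resting on 1 nilestriol array.

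The change of the nilestriol difference with irradiation was 1.18 ± 0.32 for miR-146a-5p (SE; adjusted p = 0.179, limma). No miRNA passed for nilestriol by irradiation (0 of 371, 0%; 85 at an unadjusted p under 0.05) or for amifostine by irradiation (0 of 371, 0%; 61). Those fits, like that of CBLB502 by irradiation, left 2 residual degrees of freedom, from PBS i.p. against PBS i.g. at each dose. Each drug had 1 array per dose there and was assumed to vary as the PBS arrays did, so the SE does not measure the spread of the drug arm. The call for miR-146a-5p was gained when an offset replaced the floor (1.102, adjusted p = 0.0200) and with normexp background correction (0.83, adjusted p = 0.0438). The unirradiated nilestriol array also stood apart in stromal, endothelial and muscle miRNAs (5 of 7 listed were tested): their summed scaled signal was 0.444 there, the lowest of 10, and 1.79 on the irradiated nilestriol array, the highest, with the other 8 between 0.738 and 1.58. Of their defining members, miR-145a-5p was detected on 0 of 10 bone marrow arrays and miR-143-3p on 2. Their part in the miR-146a-5p values was not tested.

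Between tissues, 3 members were lower in hypothalamus than in bone marrow and miR-146b-5p was not. The comparison used the 8 arrays of PBS i.p. and amifostine, with drug and dose as block, on their own scale (floor -5.61). Of the 4 members tested, 3 passed, all lower, beside 297 of 530 miRNAs (56.0%), of which 213 were higher and 84 lower. The median over all miRNAs was 0.38 and moved from -0.62 to 0.86 over the scalings; scaled to the 75th percentile of all miRNAs the split was 134 higher and 242 lower.

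On this scale miR-21a-5p was at 2.82 and 3.34 (PBS, 0 and 8 Gy) and 2.30 and 3.21 (amifostine) in bone marrow, against 0.26, 0.74, 0.999 and 0.51 in hypothalamus. The tissues did not overlap, and the difference was -2.29 ± 0.28 (SE, 4 arrays each), 4.89-fold lower in hypothalamus (adjusted p = 0.00218, limma). For miR-146a-5p the bone marrow levels were -0.95, -1.07, -1.35 and -1.56, and the hypothalamus levels -3.29, -2.94, -3.04 and -3.63. The difference was -1.99 ± 0.15, 3.98-fold lower (adjusted p = 3.08e-04). Both calls held in 21 of 21 alternatives, but the sizes moved with the processing, from -3.71 to -1.65 for miR-21a-5p and from -3.43 to -1.24 for miR-146a-5p.

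In hypothalamus miR-155-5p lay near the detection limit. It was detected on the 2 amifostine arrays, at -5.41 and -4.9995, and not on the 2 PBS arrays, against -2.47 to -2.19 on the bone marrow arrays. The unscaled signals of the PBS arrays were 58.3 and 51.2 in bone marrow and 9.66 and 6.60 in hypothalamus. The fitted difference was -3.05 ± 0.17 (SE, 4 arrays each; adjusted p = 1.24e-04, limma), with the 2 undetected arrays at the floor. Its size depended on the treatment of low values and the scaling, from -8.50 in the authors' deposited table to -2.45 without scaling and -0.995 with normexp. The amifostine arrays lay on a slide of their own. With the scanner software's own total signals the difference was -0.71 (adjusted p = 0.663). miR-21a-3p was detected on 0 of 4 hypothalamus arrays, with signals of -2.22 to -0.07, and was not tested.

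Only miR-146b-5p showed no tissue difference past the test among the 4. Its levels were -2.23, -1.67, -2.83 and -2.11 in bone marrow and -2.32, -1.82, -1.90 and -2.45 in hypothalamus, which overlapped. The difference was 0.09 ± 0.25 (adjusted p = 0.799), and its sign turned in 8 of 21 alternatives, from -1.33 with scaling to the 75th percentile of all miRNAs to 0.73 without scaling.

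**Figure D4:**
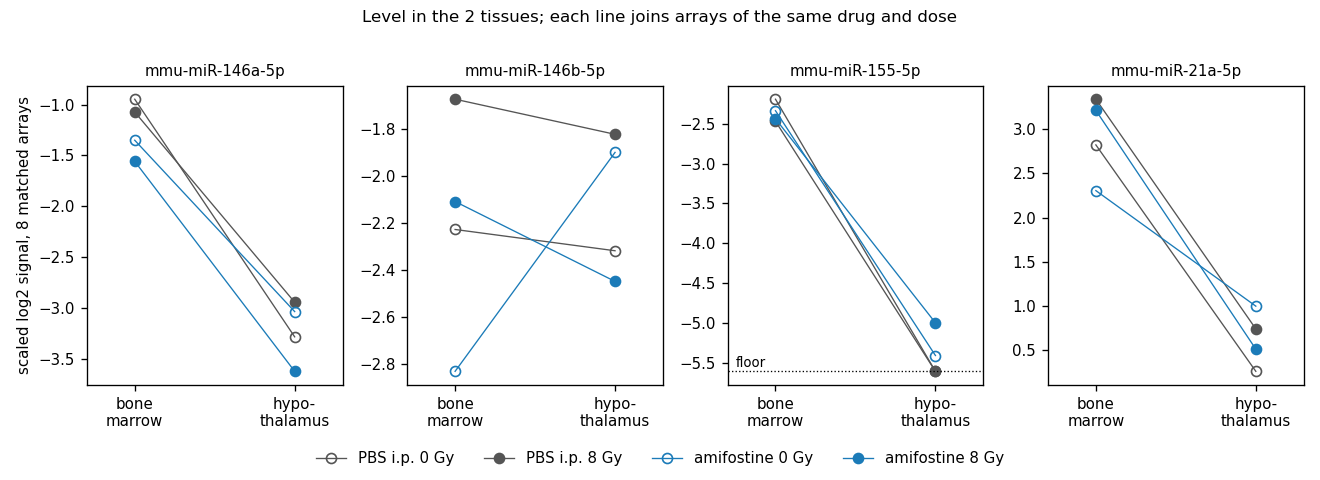
Scaled log2 signal (vertical axis) of 4 members on the 8 arrays of matched conditions; each line joins the bone marrow and hypothalamus arrays of 1 drug and dose, and the dotted line is the floor. The lines fall for miR-146a-5p, miR-155-5p and miR-21a-5p and cross for miR-146b-5p, at -2.83 to -1.67 in bone marrow and -2.45 to -1.82 in hypothalamus.

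A comparison that needs no scaling is the difference between the 2 miR-146 signals within an array. In bone marrow miR-146b-5p minus miR-146a-5p was -1.88 to -0.43 (median -1.03, n = 10), and in hypothalamus 0.97 to 1.18 (median 1.13, n = 4), without overlap. Over the 8 matched arrays it averaged -0.98 ± 0.47 (SD, n = 4) in bone marrow and 1.1015 ± 0.09 in hypothalamus. The shift was 2.08, or 4.23-fold, and was positive in each of the 4 pairs of matched conditions. This difference was chosen after the values were seen and is a description, with no test. Under 6 other ways of summarising or scaling the spots the shift was 1.12 to 2.39. Since the 2 probe sets can respond differently to the same amount of RNA, the sign within an array does not say which of the 2 was more abundant.

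Within bone marrow the same difference rose after 8 Gy in 4 of 5 arms, by 0.68 after PBS i.p., 0.53 after PBS i.g., 0.76 after CBLB502 and 0.93 after amifostine, and it was -0.42 after nilestriol. The lowest value of the series was the unirradiated CBLB502 array, -1.88, where miR-146b-5p was low and miR-146a-5p was at the level of PBS i.p.

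**Figure D5:**
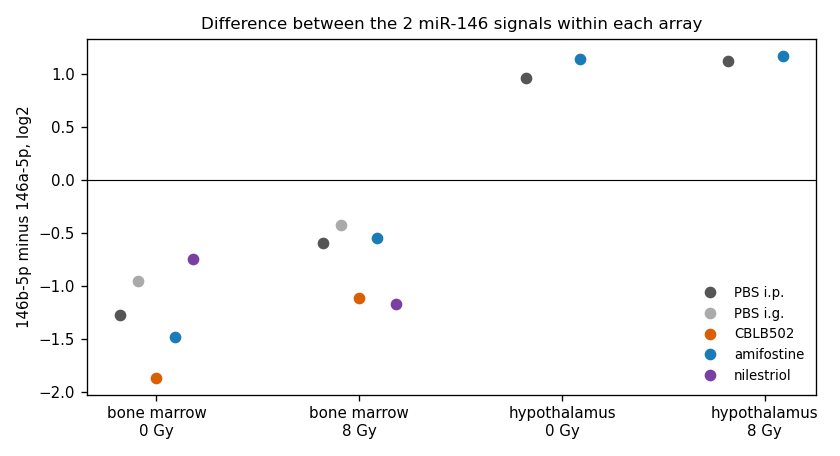
Log2 difference between mmu-miR-146b-5p and mmu-miR-146a-5p within each of the 14 arrays (vertical axis), by tissue and dose, coloured by arm. All 10 bone marrow arrays lie between -1.88 and -0.43 and all 4 hypothalamus arrays between 0.97 and 1.18.

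Of the 18 tested miRNAs of the NF-kB and Toll-like receptor list, 12 were higher in hypothalamus, beside 213 higher and 84 lower of all 530 on this scale, among them let-7e-5p at 6.95 and miR-132-3p (7.89 ± 0.16) and miR-9-5p (8.94 ± 0.15), which neurons express, and 3 were lower, among them miR-223-3p at -9.52 ± 0.29. Of the 6 blood cell miRNAs, 5 were lower in hypothalamus, and lymphoid-rich miR-181a-5p was higher by 0.98 ± 0.27 (SE, adjusted p = 0.0316, limma). Though lower, miR-223-3p and erythroid miR-451a were detected on 4 of 4 hypothalamus arrays. What blood left in the tissue added to the hypothalamus signal of miR-21a-5p, miR-146a-5p and miR-155-5p was not tested.

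In hypothalamus no member changed with dose or drug beyond its spread, and neither did any of the 544 miRNAs tested (0% for irradiation and 0% for amifostine, limma; 0 and 1 at an unadjusted p under 0.05, with 1 residual degree of freedom). The 8 minus 0 Gy differences were 0.17 (PBS i.p.) and -0.37 (amifostine) for miR-21a-5p, 0.18 and -0.44 for miR-146b-5p, and 0.03 and -0.48 for miR-146a-5p. In each case the PBS arm was above 0 and the amifostine arm below, but only on the scaled values. The unscaled signal of miR-21a-5p went from 627.27 to 608.36 after PBS i.p. and from 731.74 to 753.47 after amifostine. For miR-146b-5p it went from 104.83 to 102.92 and from 98.211 to 96.631 in the same order. For miR-146a-5p it went from 53.614 to 47.226 and from 44.605 to 42.769. The shared pattern thus depended on the scaling of the arrays. For miR-155-5p, below detection on the PBS arrays, the scaled difference in the amifostine arm was 0.52. Set against the PBS array of its dose, the scaled level of miR-21a-5p after amifostine was 0.47 higher at 0 Gy and 0.07 lower at 8 Gy. Its unscaled signal was higher after amifostine at both doses, and the amifostine arrays lay on another slide.

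Whether the response to 8 Gy differed between tissues was tested on the 8 matched arrays. The response in hypothalamus minus that in bone marrow was -0.71 ± 0.52 for miR-21a-5p and -0.67 ± 0.46 for miR-146b-5p (SE; adjusted p = 1 for both, limma), and 0 of 530 miRNAs passed (0%; 17 at an unadjusted p under 0.05). At this spread a difference between the tissues was not detectable, and the data do not show that the responses were alike.

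The 2 probes of each 5′ arm gave like differences between doses in bone marrow. Over the 5 arms they averaged 0.50 ± 0.17 and 0.55 ± 0.14 (SD) for miR-21a-5p, 0.36 ± 0.19 and 0.45 ± 0.14 for miR-146b-5p, -0.35 ± 0.30 and -0.33 ± 0.35 for miR-155-5p, and -0.07 ± 0.53 and -0.03 ± 0.55 for miR-146a-5p. Repeat spots of a probe had a coefficient of variation of 1.43 to 6.01% for miR-21a-5p on the bone marrow arrays, 1.69 to 12.0% for miR-146a-5p, 3.07 to 18.4% for miR-146b-5p and 4.37 to 17.3% for miR-155-5p, over up to 20 spots per probe.

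Across the 10 bone marrow arrays, the miRNAs with levels most like miR-21a-5p among 295 detected on all of them were miR-3102-5p, miR-22-3p and miR-34a-5p, with Pearson's r of 0.94, 0.94 and 0.93. For miR-146b-5p they were miR-221-3p, miR-15b-3p and miR-652-3p (0.96, 0.91 and 0.91). For miR-146a-5p the most like was another member, miR-155-5p, at 0.71, followed by miR-342-3p at 0.71 and miR-199a-5p at 0.70. Those of miR-155-5p were miR-378b, miR-677-5p and miR-20b-5p (0.79, 0.76 and 0.75). The median r over all candidates was 0.05 to 0.16. These values are descriptions over arrays that share doses, slides and scaling, and no p is given.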

How the data were processed

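Small RNA of 14 pools was hybridised to 1-colour Agilent mouse miRNA arrays, and per the file headers the authors' scans were read with Feature Extraction 10.7.1.1. The deposited scanner files give background-subtracted intensity per spot. The authors' deposited value table holds log2 values whose centring is not stated, and it was used as an alternative. Spots called outliers were left out (4.42 to 5.27% of 49880 per array), spots averaged per probe and then over the probes of a miRNA. Signals were divided by each array's 75th percentile over the miRNAs that every array of the fit detected (296 in bone marrow, 471 in hypothalamus, 277 on the matched arrays), raised to a floor (each array's 5th percentile of detected signals, as a median) and put on the log2 scale. A miRNA counts as detected where its total exceeds 3 times its error, and miRNAs detected on a share of 0.5 or more of the arrays entered the test. Fits used limma 3.58.1 in R 4.3.3 (lmFit, eBayes, two-sided, Benjamini-Hochberg over all miRNAs tested, threshold 0.05). With 1 array per condition, drug fits used the doses as replicates with dose as block, and the number of arrays limits the precision. The fits were tested on simulated data. Named miRNAs are the members, up to 4 miRNAs per list past the threshold, smallest adjusted p first, and the 3 nearest by Pearson's r. Members and lists were chosen with earlier results of these data known. Alternatives changed scaling, floor, background, spot summary, filter, slide or arm terms, or left out arrays.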

Additional observations from a re-analysis of the deposited data

Results flagged for a closer look

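On the scale of the hypothalamus arrays, the level of miR-146a-5p after amifostine at 8 Gy was -3.11. It was the lowest of the 4 hypothalamus arrays and lay far from the other 3, at -2.64 to -2.59. On the scale of the matched arrays it was -3.63, nearer to the others at -3.29 to -2.94. Its unscaled signal was 42.8, beside 44.6 for amifostine at 0 Gy and 53.6 and 47.2 for PBS i.p. at 0 and 8 Gy. The 8 minus 0 Gy difference of miR-146a-5p in the nilestriol arm of bone marrow was 0.89, the highest of 5 arms, while the others were at -0.34 to -0.25. On the hypothalamus and bone marrow scales, the gap to the nearest array or arm took up most of the range of the group in both cases. Such gaps were looked for in 19 groups and found in these 2, and chance gives about 1 in 20.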

How the results depend on the processing

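For 8 minus 0 Gy in bone marrow, 47 became 7 in the authors' table, 18 with scanner totals, 30 with the brightest probe, 0 without the detection filter, 10 on slide 1 alone, 0 on slide 2 alone, 26 without the arm block and 1 to 89 on leaving out an arm (1 with PBS i.p. left out, 2 with amifostine, 7 with CBLB502, 24 with PBS i.g. and 89 with nilestriol). In the PBS arms alone, 0 became 93 with an offset, 33 with normexp and 9 in the authors' table. For CBLB502, 45 became 83 with the 75th percentile of all miRNAs, 0 without scaling, 68 with an offset, 4 in the authors' table, 12 with totals, 0 without the filter, 107 with PBS and CBLB502 arrays alone, 0 with PBS i.p. as the only vehicle, and 0 to 88 on leaving out an array (0 without either 0 Gy PBS array, the 8 Gy PBS i.p. array or the 8 Gy CBLB502 array). For amifostine 0 became 13 with an offset. For nilestriol 0 became 72 with the 75th percentile of all miRNAs and 0 to 95 on leaving out an array (95 without the 8 Gy nilestriol array). The changes of drug differences with irradiation, all 0, became 8 (CBLB502), 3 (amifostine) and 52 (nilestriol) with an offset, 6, 5 and 19 with normexp, 8, 9 and 12 in the authors' table, 9, 8 and 17 with totals, 41, 39 and 27 without the filter, and 1 for amifostine with the brightest probe. Hypothalamus amifostine went from 0 to 9 in the authors' table. Between tissues 297 became 160 with detection on all arrays and 174 to 305 on leaving out an array (174 and 177 without the 8 and 0 Gy PBS hypothalamus arrays). The tissue difference in irradiation response, 0, became 8 with an offset, 3 with normexp, 6 with the brightest probe and 0 to 38 on leaving out an array (38 without the 0 Gy PBS hypothalamus array). Signs turned for miR-146a-5p after 8 Gy on slide 2 alone (0.31; on leaving out an arm -0.302 to 0.0102), for miR-21a-5p in the PBS arms with quantile normalization (-0.10), for miR-21a-3p there with normexp (-0.0082) and for miR-146a-5p after CBLB502 with the 75th percentile of all miRNAs (-0.0781). They turned for miR-155-5p after amifostine with that percentile (-0.18), no scaling (-0.0487), quantile normalization and the authors' table (-0.12 each), the brightest probe (-0.0188) and PBS i.p. alone (-0.0755), and for miR-146a-5p after nilestriol on leaving out an array (-1.06 to 0.14, the latter without its 0 Gy array). They turned for miR-146b-5p between tissues with that percentile (-1.33), quantile normalization (-0.15), normexp (-0.12), the authors' table (-1.04), a slide term (-0.12), PBS i.p. alone (-0.27) and on leaving out an array (-0.25 to 0.23). The causes were not tested. The difference between miR-146b-5p and miR-146a-5p within an array, whose alternatives were chosen after seeing the data, kept its direction in 14 of 14. Leaving out arrays could not be fitted for the PBS arms alone, for hypothalamus or for a drug's own arrays in the changes with irradiation.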
